A study of Mus musculus with 30 samples.

Results

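Tendon genes were followed in RNA of whole soleus, a slow muscle of the calf, from 30 mice. The set holds 8 genes chosen by symbol as markers of tenocytes and of tendon matrix: Scx, Mkx, Tnmd, Fmod, Chad, Comp, Thbs4 and Cilp2. Each symbol matched 1 Ensembl identifier among the 56980 genes counted, and all 8 were among the 16932 genes that had enough reads to be tested. The mice were C57BL/6J, aged 3 to 4 months, and both sexes were present in every group. Controls (Ctrl) carried floxed alleles of both AMPK catalytic subunits, AMPKα1 and AMPKα2, without Cre, and knockouts (mKO) lacked both subunits in skeletal muscle. The Cre driver is not named in the labels. AMB mice stayed ambulatory for 4 weeks, and HU mice had their hindlimbs unloaded for 4 weeks. There were 8 AMB Ctrl, 7 AMB mKO, 7 HU Ctrl and 8 HU mKO mice, 1 library each. The comparisons ask what unloading does to these transcripts, what loss of AMPK in muscle does, and whether the former depends on the latter.

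Tenocytes are the fibroblast-like cells of tendon, which joins muscle to bone and carries the force that the muscle makes. Scleraxis (Scx), a bHLH transcription factor that binds E-box sequences, and Mohawk (Mkx), a homeobox factor, direct tenocyte differentiation and collagen production, and tenomodulin (Tnmd), a membrane glycoprotein, is a late tenocyte marker known to depend on Scx. The matrix genes encode fibromodulin (Fmod) and chondroadherin (Chad), both leucine-rich repeat proteins that bind collagen, the related pentameric thrombospondins Comp and Thbs4, and cartilage intermediate layer protein 2 (Cilp2). Scx and several of these matrix genes are known to respond to mechanical load in tendon. In whole muscle, fewer cells of a type and less RNA per cell cannot be told apart.

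Promoter sequences are shown because Scx binds E-boxes and because most of the 8 genes varied together. RefSeq promoters on GRCm38.p6 were at hand for 5 of the 8 genes, Tnmd, Chad, Fmod, Thbs4 and Cilp2. The 250 bases before the start are printed for 3 of them, 5′ to 3′ on the strand of the gene, with each CANNTG, the core E-box, in capitals. Fmod lies on the plus strand at chr1:134037004-134037253, Thbs4 on the minus strand at chr13:92794819-92795068 and Tnmd on the plus strand at chrX:133850758-133851007.
Fmod: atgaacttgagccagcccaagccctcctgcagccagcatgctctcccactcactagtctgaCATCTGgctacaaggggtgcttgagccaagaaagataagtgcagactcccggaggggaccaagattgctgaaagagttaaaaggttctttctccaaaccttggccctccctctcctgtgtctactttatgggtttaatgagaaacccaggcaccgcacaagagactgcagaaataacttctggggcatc
Thbs4: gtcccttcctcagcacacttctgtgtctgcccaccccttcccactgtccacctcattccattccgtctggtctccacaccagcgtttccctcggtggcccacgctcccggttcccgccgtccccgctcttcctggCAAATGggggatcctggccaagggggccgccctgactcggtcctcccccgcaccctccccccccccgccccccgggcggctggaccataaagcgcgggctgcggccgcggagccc
Tnmd: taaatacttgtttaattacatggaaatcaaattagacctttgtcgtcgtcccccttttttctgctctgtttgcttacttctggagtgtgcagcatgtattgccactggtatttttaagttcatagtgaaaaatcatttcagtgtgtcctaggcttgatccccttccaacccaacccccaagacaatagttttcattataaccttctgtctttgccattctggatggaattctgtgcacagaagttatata
Fmod and Thbs4 each held 1 match and Tnmd held 0. CANNTG reads the same on both strands. It occurred in 4 of the 5 members' promoters and in 66.2% of 32851 promoters of this length. GCGNGGGCG, the letters of an EGR-type GC box searched on both strands, occurred in 1 of the 5 (Cilp2) and in 4.7% of all. The 2 motifs were counted separately even where matches could overlap, and a match describes the letters only.

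Library totals ran from 15.3 to 20.9 M counts in AMB Ctrl, 13.0 to 18.5 M in AMB mKO, 13.9 to 18.1 M in HU Ctrl and 12.1 to 17.5 M in HU mKO. Prkaa2, which encodes AMPKα2, separated the genotypes at both loading states, with 169.8 to 258 CPM (counts scaled to library size) in AMB Ctrl against 15.0 to 85.1 in AMB mKO, and 129.9 to 346 in HU Ctrl against 56.0 to 112 in HU mKO. Prkaa1, which encodes AMPKα1, overlapped in both, with 16.5 to 24.9 CPM in AMB Ctrl against 8.21 to 36.2 in AMB mKO, and 22.4 to 30.4 in HU Ctrl against 13.4 to 24.3 in HU mKO. One library stood apart. AMB mKO replicate 2 held 116 CPM of the slow myosin Myh7, against 4310.1 to 18091 in the other 29 libraries, and 903 CPM of the adipokine Adipoq, against at most 200.4. For the 8 genes, unloading changes in knockouts, averages, genotype changes, ratios of Scx and folds between libraries are given with and without it. Changes of genes outside the 8 are given only with it. Sample titles end in the letters a, b or c, which the labels do not explain. All 4 groups held all 3 letters.

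All 8 genes were detected in all 30 libraries, and the matrix genes other than Cilp2 were the most abundant. Levels can be compared between genes only per length of exon, here merged exons of GENCODE M21. On that scale the mean over 30 libraries was 136 CPM per kb for Thbs4 and 130.1 for Fmod, followed by Chad at 56.7, Comp at 24.9, Tnmd at 14.2, Cilp2 at 11.1, Scx at 7.19 and Mkx at 2.20. Thbs4 and Fmod, and likewise the neighbours Tnmd and Cilp2, differed by far less than their spread over mice. The other values here are TMM-normalised CPM of 1 gene at a time.

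Unloading lowered 1 of the 8 genes, Scx, in both genotypes. In ambulatory mice Scx ran from 9.60 to 35.4 CPM in AMB Ctrl (median 22.7) and from 0.588 to 57.7 in AMB mKO (median 17.4). In unloaded mice it ran from 3.74 to 9.34 in HU Ctrl (median 6.86) and from 2.47 to 10.5 in HU mKO (median 5.62). Every HU Ctrl library lay below every AMB Ctrl library. Among knockouts the groups overlapped: AMB mKO replicate 2, at 0.588, was below all unloaded mice, and AMB mKO replicate 3, at 9.39, lay within their range. Group means were 23.6 ± 8.24 CPM (SD, n = 8), 20.9 ± 17.9 (SD, n = 7), 6.94 ± 2.19 (SD, n = 7) and 6.18 ± 2.78 (SD, n = 8) in the same order. Across both genotypes, 12 of 15 ambulatory libraries were above the highest unloaded library, and 15 of 15 unloaded libraries were below the ambulatory median of 20.4 CPM.

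**Figure D1:**
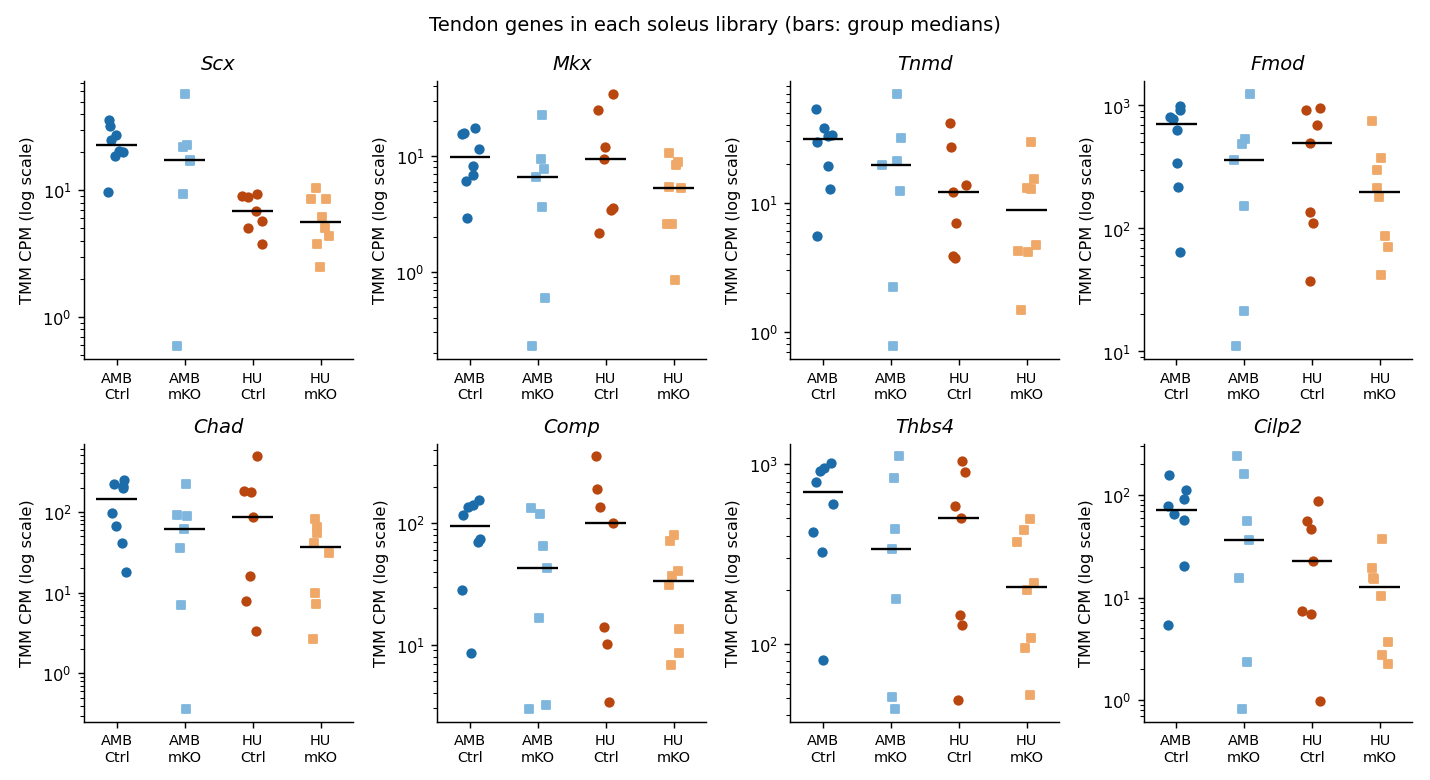
TMM-normalised CPM (log axis) of the 8 tendon genes in each library, 1 point per mouse, with circles for Ctrl, squares for mKO and black bars at group medians. Scx lies between 2.47 and 10.5 CPM in all unloaded libraries, between 9.60 and 35.4 in AMB Ctrl and between 0.588 and 57.7 in AMB mKO. Within a genotype, the unloaded and ambulatory ranges of Scx overlap in knockouts only, and those of the other 7 genes overlap in both.

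In controls Scx fell by 1.81 ± 0.46 (SE) on the log2 scale with unloading, 3.52-fold, with a 95% interval from -2.76 to -0.87 and an adjusted p of 0.0117 (edgeR quasi-likelihood test, Benjamini-Hochberg over all genes tested). It was the only one of the 8 called, where 5.74% of all genes were called lower, and the only one whose groups did not overlap, where 2.12% of all genes were lower without overlap. The call held in 30 of 30 fits that left out 1 library, of which 15 left out a control. Within title letters a, b and c the unloaded minus ambulatory difference in mean log2 CPM was -1.78, -2.33 and -1.24.

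In knockouts Scx fell by 1.61 ± 0.48 (SE) on the log2 scale, 3.05-fold, with a 95% interval from -2.59 to -0.63 and an adjusted p of 0.0321 by the same edgeR test. It was again the only one of the 8 called, where 4.75% of all genes were called lower, and 0 of the 8 had groups apart, where 0.372% of all genes were lower without overlap. Without AMB mKO replicate 2 the change was -1.92 ± 0.36 with an edgeR adjusted p of 0.000922. The call was lost without AMB mKO replicate 4 (-1.19, adjusted p 0.0887), HU mKO replicate 4 (-1.57, adjusted p 0.0611) or HU mKO replicate 5 (-1.44, adjusted p 0.0773), and in an edgeR fit of the 15 knockout libraries alone (-1.39, adjusted p 0.21). Within title letters the differences were -3.14 in a and -1.37 in b, but 1.13 in c, where AMB mKO replicates 2 and 3 are the ambulatory libraries. Averaged over genotypes, the change of Scx was -1.71 ± 0.33 with an edgeR adjusted p of 0.000293, and -1.84 ± 0.24 without AMB mKO replicate 2. The interaction, the change in knockouts minus that in controls, was 0.20 ± 0.67 with an interval from -1.17 to 1.58 and an edgeR adjusted p of 0.999, and -0.15 ± 0.50 without that library.

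Mkx, the other transcription factor, did not pass any test. It ran from 2.93 to 17.6 CPM in AMB Ctrl (median 9.82) and from 0.226 to 22.4 in AMB mKO (median 6.60). In unloaded mice it ran from 2.15 to 34.6 in HU Ctrl (median 9.33) and from 0.849 to 10.7 in HU mKO (median 5.33). The highest Mkx of the series was thus in an unloaded control, replicate 2, and the groups overlapped throughout. With unloading the log2 change was 0.27 ± 0.65 in controls, with an interval from -1.06 to 1.61, and -0.29 ± 0.71 in knockouts. Changes of 2-fold in either direction lie inside both 95% intervals.

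Tnmd was lower in unloaded mice by the medians, but within the spread. Its range was 5.49 to 53.2 CPM in AMB Ctrl (median 31.3) and 0.769 to 70.1 in AMB mKO (median 19.7). In unloaded mice the range was 3.74 to 41.6 in HU Ctrl (median 12.03) and 1.47 to 29.6 in HU mKO (median 8.70). Unloaded and ambulatory mice overlapped in both genotypes. The log2 change with unloading was -0.84 ± 0.68 in controls, -1.11 ± 0.72 in knockouts and -0.97 ± 0.49 averaged over genotypes, with an edgeR adjusted p of 0.138 for the average.

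Among the leucine-rich repeat proteins, Fmod ran from 64.0 to 985 CPM in AMB Ctrl (median 704) and from 11.0 to 1247 in AMB mKO (median 359). In unloaded mice Fmod ran from 37.5 to 955 in HU Ctrl (median 497) and from 41.8 to 743 in HU mKO (median 196). The highest Fmod levels in unloaded and ambulatory controls were close. Its log2 change with unloading was -0.35 ± 0.77 in controls and -0.55 ± 0.81 in knockouts. Chad ran from 18.02 to 246 CPM in AMB Ctrl (median 146) and from 0.362 to 224 in AMB mKO (median 61.1). Unloaded, it ran from 3.33 to 487 in HU Ctrl (median 86.5) and from 2.7003 to 81.7 in HU mKO (median 36.4). HU Ctrl replicate 2, at 487 CPM, was above every other library of the series. The Chad log2 change with unloading was 0.01 ± 0.89 in controls, with an interval from -1.82 to 1.84, and -1.05 ± 0.96 in knockouts. Without HU Ctrl replicate 2 the change in controls was -0.90 ± 0.95.

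The thrombospondins gave the same overlapping picture. Comp ran from 8.60 to 156 CPM in AMB Ctrl (median 95.9) and from 2.95 to 134 in AMB mKO (median 42.5). In unloaded mice Comp ran from 3.40 to 356 in HU Ctrl (median 101) and from 6.79 to 80.2 in HU mKO (median 33.8). The 2 control medians were close, and HU Ctrl replicate 2 was again the highest library. The Comp log2 change with unloading was 0.34 ± 0.82 in controls and -0.60 ± 0.90 in knockouts. Thbs4 ran from 81.4 to 1015 CPM in AMB Ctrl (median 702) and from 43.3 to 1109 in AMB mKO (median 336). Its range in unloaded mice was 48.4 to 1039 in HU Ctrl (median 502) and 52.0 to 493 in HU mKO (median 208). The Thbs4 log2 change was -0.43 ± 0.66 in controls and -0.76 ± 0.70 in knockouts, and neither passed.

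Cilp2 gave an estimate averaged over genotypes as large as that of Scx, with a wider error. It ran from 5.42 to 158 CPM in AMB Ctrl (median 72.5) and from 0.814 to 240 in AMB mKO (median 36.1). In unloaded mice it ran from 0.970 to 87.3 in HU Ctrl (median 22.8) and from 2.24 to 37.2 in HU mKO (median 12.8). The ranges overlapped, with 5 of 15 ambulatory libraries above all unloaded ones and 14 of 15 unloaded libraries below the ambulatory median of 56.8 CPM. The log2 change was -1.17 ± 0.88 in controls and -2.28 ± 0.97 in knockouts, with edgeR adjusted p of 0.421 and 0.127. Averaged over genotypes it was -1.73 ± 0.66, 3.31-fold lower, with an edgeR adjusted p of 0.0482. Cilp2 and Scx were thus 2 of 8 genes called lower in the average, where 14.3% of all genes were. The Cilp2 call was lost in 20 of 30 fits that left out 1 library (lowest size without AMB mKO replicate 4, -1.41, adjusted p 0.102) and with the title letter in the model (-1.34, adjusted p 0.142). Its interaction was -1.10 ± 1.28. In letter c the Cilp2 difference was 0.53 in controls and 3.16 in knockouts, against -3.15 and -4.40 in letter a.

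**Figure D2:**
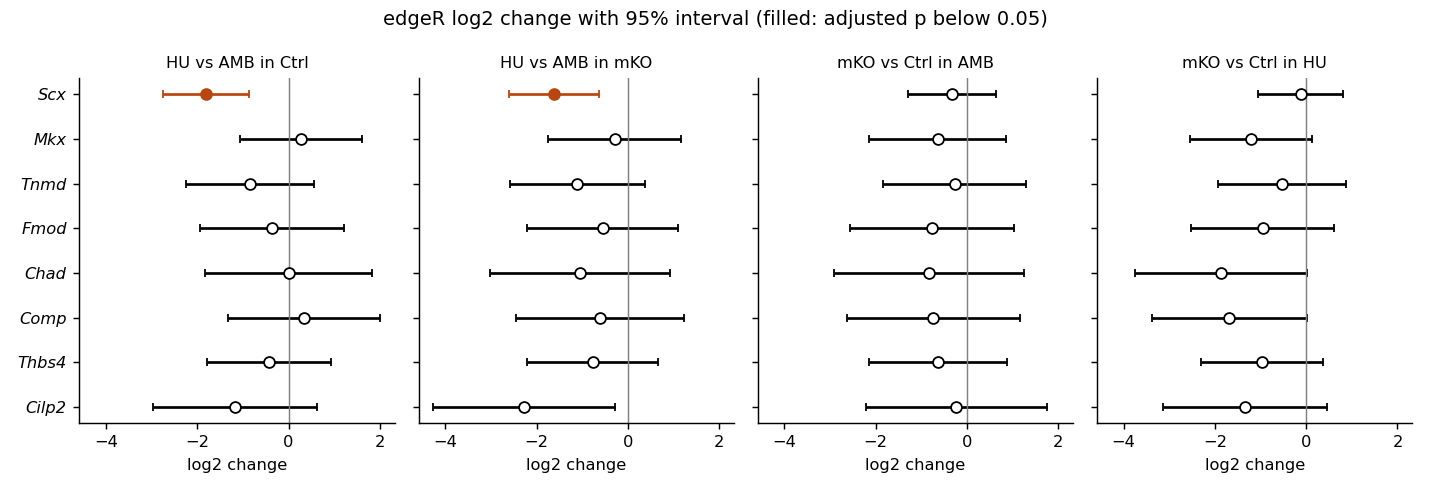
Model log2 changes (points) with 95% intervals (bars) of the 8 genes in the 4 comparisons of 2 groups, on 1 shared horizontal log2 axis, with filled red-brown points for adjusted p below 0.05. Scx is filled in both unloading comparisons, at -1.81 and -1.61, and no gene is filled in the comparisons of genotypes.

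Set beside all genes, the median log2 change of the 8 with unloading was -0.39 in controls, where the median over all genes tested was 0.03, and -0.90 in knockouts, where it was -0.04. Estimates were below 0 for 5 of 8 in controls and 8 of 8 in knockouts, against 47.2% and 53.4% of all genes. The 8 share their libraries, so 8 estimates of 1 sign are not 8 independent observations. Counts of 1 or 2 called among 8 were not read as setting the group apart from all genes. Without AMB mKO replicate 2 the knockout changes of the 7 genes other than Scx were -1.42 for Tnmd, -0.61 for Mkx, -1.37 for Chad, -0.93 for Comp, -0.86 for Fmod, -1.06 for Thbs4 and -2.61 for Cilp2, with edgeR adjusted p from 0.0644 to 0.6. The averages over genotypes without it were -1.10 ± 0.46 for Tnmd and -1.88 ± 0.63 for Cilp2.

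Mkx, Chad and Comp, with estimates near 0 in controls, had differences of opposite sign between title letters, each over 2 or 3 mice per letter and group. In letters a and b the mean log2 CPM of all 8 genes was lower in unloaded than in ambulatory mice of both genotypes. For Chad in controls the difference was -2.60 in a and -2.31 in b, for Comp -1.56 and -2.09, and for Mkx -0.967 and -1.0002. In letter c, with 3 AMB Ctrl and 3 HU Ctrl mice, it was 0.98 for Chad, 1.39 for Comp and 1.08 for Mkx, and of the 8 only Scx (-1.24) and Tnmd (-0.0032) were below 0. In knockouts of letter c all 8 were above 0, with Chad at 4.47, Comp at 3.48 and Mkx at 3.69. The 2 ambulatory knockouts of letter c are replicates 2 and 3, the lowest of their group in all 8 genes. HU Ctrl replicate 2, the highest in Mkx, Chad and Comp, is also of letter c. Whether the effect of unloading differs between letters was not tested.

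Loss of AMPK in muscle changed none of the 8 genes past the threshold, where 0.0177% of all genes were called in ambulatory mice and 0.0177% in unloaded mice. DESeq2 and limma voom also called 0 of the 8. None of the 8 reached an unadjusted p below 0.05 in edgeR, where 7.62% of all genes did in ambulatory mice, 1.78% in unloaded mice and 5.97% averaged over loading. In ambulatory mice the estimates ran from -0.82 for Chad to -0.24 for Cilp2, and the lowest edgeR adjusted p was 0.934. Without AMB mKO replicate 2 they ran from -0.43 for Chad to 0.14 for Cilp2. In unloaded mice the largest estimates were in Chad, at -1.88 ± 0.92 with an interval from -3.76 to 0.01, and Comp, at -1.68 ± 0.83 with an interval from -3.38 to 0.02. Mkx stood at -1.21, Cilp2 at -1.34, Thbs4 at -0.97, Fmod at -0.96, Tnmd at -0.53 and Scx at -0.12, all with an edgeR adjusted p of 1. The Chad and Comp estimates in unloaded mice rested in part on 1 control: without HU Ctrl replicate 2 they were -1.06 ± 0.90 and -0.96 ± 0.85. Averaged over loading, Chad was at -1.35 ± 0.70, Comp at -1.21 ± 0.62 and Mkx at -0.93 ± 0.49, with edgeR adjusted p from 0.851 to 0.867. Without AMB mKO replicate 2 these were -1.14, -1.04 and -0.75. Of the 8, 0 were called in the average, where 0.0177% of all genes were. For the interaction, 0 of the 8 and 0% of all genes passed by edgeR, with 0 of the 8 and 2.42% of all genes at an unadjusted p below 0.05.

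These genes varied widely between mice. From the lowest to the highest of all 30 libraries the fold was 25.6 for Thbs4, 91.1 for Tnmd, 98.0 for Scx, 113 for Fmod, 121 for Comp, 153 for Mkx, 294 for Cilp2 and 1345 for Chad. Without AMB mKO replicate 2 it was 22.9 for Thbs4, 23.4 for Scx, 47.8 for Tnmd, 58.1 for Fmod, 58.5 for Mkx, 121 for Comp, 180.2 for Chad and 247 for Cilp2. AMB mKO replicate 2 was the lowest library for 7 of the 8, and AMB mKO replicate 3 for Comp. The lowest values rest on few reads, 5 for Mkx, 8 for Chad and 13 for Scx. The highest was AMB mKO replicate 5 for Tnmd, Fmod and Thbs4, HU Ctrl replicate 2 for Mkx, Chad and Comp, and AMB mKO replicate 4 for Scx and Cilp2. After group and sex were removed, the SD of log2 CPM was lowest for Scx, at 1.08, and highest for Chad, at 2.29, against a median of 0.42 over all genes tested. Biological coefficients of variation, the spread between mice beyond counting error in edgeR, ran from 58.1% for Scx to 110.5% for Chad, against a median of 27.8%. Between 97.0% and 99.9% of tested genes had a smaller SD than a member.

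**Figure D3:**
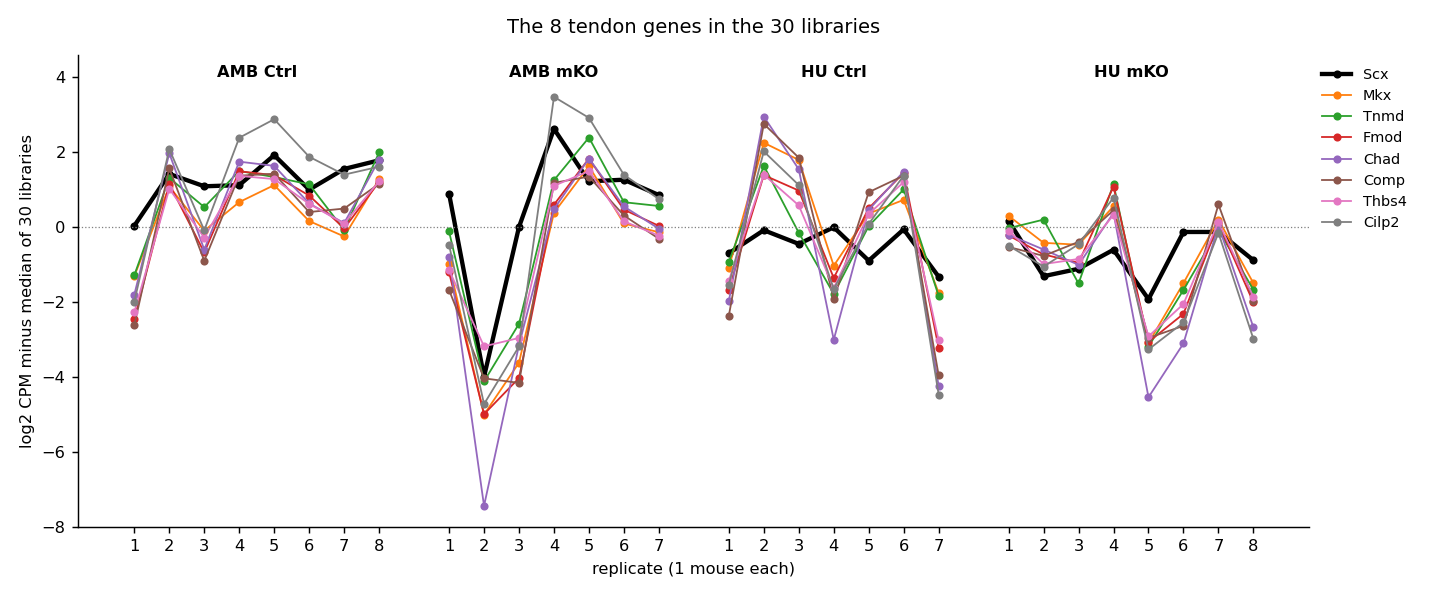
Log2 CPM of each gene minus its median over 30 libraries (vertical axis), with replicates along the horizontal axis by group and lines joining the points of a gene only to guide the eye. The thin lines of 7 genes move together from mouse to mouse, down to AMB mKO replicate 2, and the thick black line of Scx stays near or below 0 in the unloaded groups even where the others are high, as in HU Ctrl replicate 2.

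This spread was shared. All 8 genes were above their medians in 8 libraries and none was in 8 others, and 7 or 8 lay on one side in 24 of 30. These medians were over all 30 libraries, with group not removed. The libraries with all 8 genes above were all ambulatory. Those with none above were all unloaded except AMB mKO replicate 2. Among the 21 pairs without Scx, Pearson's r of log2 CPM after removal of group and sex ran from 0.88 to 0.98 over 30 libraries, with a median of 0.95, and Spearman's rho from 0.85 to 0.96. The highest was Fmod with Thbs4. The 7 pairs with Scx were looser, with r from 0.61 (Comp) to 0.74 (Tnmd) and rho from 0.57 to 0.63. The largest permutation p of the 28 pairs, adjusted by Benjamini-Hochberg over them, was 0.00013 for r and 0.00146 for rho. Without the 2 libraries farthest from the median, r ran from 0.86 to 0.98 without Scx and from 0.58 to 0.67 with it. Within single groups r with Scx was 0.74 to 0.84 in AMB Ctrl and 0.78 to 0.92 in AMB mKO, and 0.48 to 0.68 in HU Ctrl and 0.40 to 0.63 in HU mKO. In those groups the other pairs stayed between 0.83 and 1.00. Whether the relation with Scx differs between loading states was not tested.

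**Figure D4:**
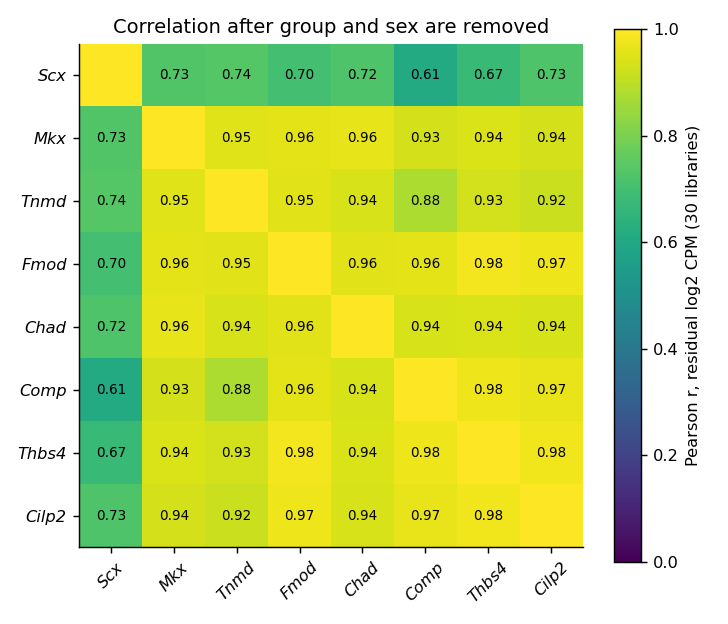
Pearson's r between the 8 genes over 30 libraries, computed on log2 CPM after group and sex were removed, with the value printed in each cell and a colour scale from 0 to 1. Cells of the Scx row run from 0.61 to 0.74, and cells among the other 7 genes from 0.88 to 0.98.

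Some unloaded libraries held high levels of matrix genes beside low Scx, which was at most 10.5 CPM in every unloaded library. HU Ctrl replicate 2 had 487 CPM of Chad, 356 of Comp and 917 of Fmod, all in the upper part of or above the ambulatory control range, with 8.84 CPM of Scx. HU Ctrl replicate 6 had 955 CPM of Fmod and 8.98 of Scx. By contrast AMB Ctrl replicate 4, with 985 CPM of Fmod, had 20.4 of Scx. This pattern was noticed in the data and then tested as the log2 ratio of Scx to each other gene, unloaded against ambulatory, by 2-sided exact permutation tests over mice. None of the 14 tests passed after Benjamini-Hochberg adjustment. The largest difference was in the ratio of Scx to Mkx, at -1.59 in controls (exact permutation p = 0.00653, adjusted 0.0914) and -1.49 in knockouts (exact permutation p = 0.0213, adjusted 0.149). The others ran from -1.19 to -0.04 in controls and from -1.18 to 0.14 in knockouts, with adjusted exact p from 0.283 to 0.964. Without AMB mKO replicate 2 the 7 ratios in knockouts ran from -1.58 to 0.20, with adjusted exact p from 0.161 to 0.873. The ratio of Scx to Cilp2 was among these, at -0.04 in controls and 0.14 in knockouts.

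**Figure D5:**
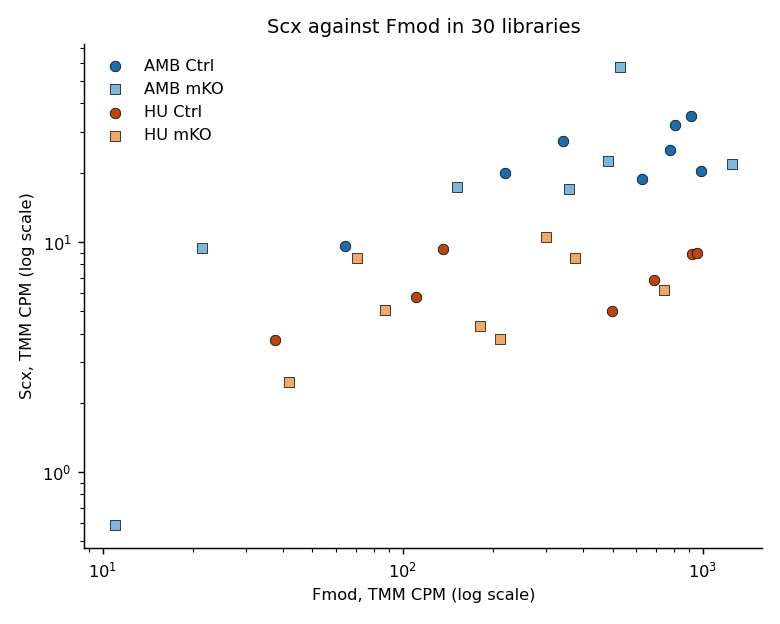
Scx against Fmod in TMM-normalised CPM, both axes on a log scale, 1 point per library, with circles for Ctrl, squares for mKO, blue for ambulatory and orange for unloaded mice. At Fmod levels near 955 to 985 CPM, an unloaded control holds 8.98 CPM of Scx and an ambulatory control 20.4.

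Genes whose residual log2 CPM followed the mean of the 8 most closely were sought among 14374 other genes, as a description over 30 libraries. The 8 nearest were Ptx4 and Cilp (r = 0.98 each), Atp6v0a4 (0.96), and Edil3, Crispld1, Uts2r, Cpxm2 and Tnc (0.95 each). Cilp encodes the paralogue of the Cilp2 protein, and Tnc encodes tenascin-C, a matrix glycoprotein of tendon and muscle-tendon junction. In all, 21 genes reached r of 0.9. None of the 8 nearest was called for unloading in a single genotype. Crispld1 came closest, at -1.29 ± 0.45 in controls (edgeR adjusted p 0.0602), and Cilp was at -0.16 ± 0.51. Averages over genotypes were read only for Ptx4, Cilp and Tnc, which are also in the list of tendon matrix genes below. In that average Ptx4 was called lower, at -1.93 ± 0.53 (edgeR adjusted p 0.00722), where 14.3% of all genes were. Cilp (-0.23 ± 0.35) and Tnc (-1.40 ± 0.57) were not called.

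Other tendon genes, in a list of 36 collagens and matrix genes that excludes the 8, were lower in part with unloading. In controls 1 was called higher, where 5.37% of all genes were, and 3 lower, where 5.74% were, with a median log2 change of -0.19. The lower genes were the fibrillar collagens Col1a1 (-2.74 ± 0.84) and Col3a1 (-1.63 ± 0.52) and the collagen-binding Sparc (-1.40 ± 0.42), and Fibin was higher (1.14 ± 0.37). In knockouts 0 were higher, where 5.3% of all genes were, and 8 lower, where 4.75% were, with a median of -0.73. The lower genes were led by Col1a1 (-3.92 ± 0.91), Col1a2 (-3.01 ± 0.76), Col3a1 (-2.61 ± 0.54) and Sparc (-1.78 ± 0.44). Averaged over genotypes 1 was higher, where 14.2% of all genes were, and 15 lower, where 14.3% were. Among the lower genes was Kera, a leucine-rich repeat relative of Fmod, at -2.45 ± 0.68. None was called between genotypes. Col1a1, with a median of 1555 CPM in AMB Ctrl and 168 in HU Ctrl, was highest in AMB mKO replicate 4, at 13334 CPM, which is also the library highest in Scx and Cilp2.

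Of 18 tendon regulators and signals, 15 were tested. In controls 3 were called lower with unloading, where 5.74% of all genes were, and 1 higher, where 5.37% were. The lower ones were the load-responsive factor Egr1 (-1.31 ± 0.37), the Scx relative Tcf15 (-0.98 ± 0.31) and the ligand Tgfb1 (-0.67 ± 0.21). The TGF-β receptor Tgfbr1 was higher (0.60 ± 0.12). In knockouts 0 were called lower, where 4.75% of all genes were. Tgfbr1 (0.69 ± 0.13) and the TGF-β effector Smad3 (0.81 ± 0.25) were called higher, where 5.3% were. The knockout estimates of Tcf15 (-0.71 ± 0.33) and Tgfb1 (-0.50 ± 0.22) were also below 0, and that of Egr1 was 0.29 ± 0.37. None of the 15 was called between genotypes or for the interaction. Egr1 was at -1.29 ± 0.39 between genotypes in ambulatory mice (edgeR adjusted p 0.534), with an interaction of 1.59 ± 0.53 (edgeR adjusted p 0.999). Among 16 family relatives of the 8 genes, 15 were tested, of which 1 (Tcf15) was called lower in controls and 0 were called in knockouts. Thbs3, a relative of Thbs4 and Comp, had means of 18.4, 20.7, 19.6 and 23.8 CPM in AMB Ctrl, AMB mKO, HU Ctrl and HU mKO.

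Markers of cells that could lie beside tendon were read in the same libraries. Of 12 cartilage markers 4 had enough counts to test, and several defining ones were near 0: Matn1 and Snorc were at 0 in 27 of 30 libraries each, Epyc in 24 and Cnmd in 18. Acan had a median of 0.0684 CPM and reached 9.00 in AMB Ctrl replicate 5. Col2a1, the main cartilage collagen, was at 0 in no library and reached 37.0 CPM in AMB mKO replicate 4, the library highest in Scx and Cilp2. Col11a2 reached 212 CPM. The summed level of the 12 ran from 34.8 to 138 CPM in AMB Ctrl, 8.14 to 276 in AMB mKO, 13.4 to 77.9 in HU Ctrl and 11.4 to 48.5 in HU mKO. The list fell partly with unloading: Sox9, also expressed by tendon progenitors, was called in controls (-1.30 ± 0.43). In the average 3 of the 4 were called lower, where 14.3% of all genes were. Of 7 bone markers 3 were tested, with 0 called in either genotype and Phex called higher in the average. Ibsp was at 0 in 24 libraries and Sp7 in 22. HU Ctrl replicate 2, highest in Mkx, Chad and Comp, held 24.9 CPM of Ibsp, against at most 0.687 in any other library.

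The 4 muscle-tendon junction markers summed to 166 to 424 CPM in AMB Ctrl, 148 to 622 in AMB mKO, 141 to 271 in HU Ctrl and 171 to 273 in HU mKO. Of these, Ankrd1, a load-responsive muscle gene, was lower with unloading in controls (-2.56 ± 0.60) and knockouts (-2.07 ± 0.61). In the average, where 14.3% of all genes were called lower, 3 of the 4 were, Ankrd1 (-2.32 ± 0.40), Col22a1 (-1.53 ± 0.45) and Tigd4 (-0.85 ± 0.30). The 7 slow fibre genes summed to 16262 to 41859 CPM in AMB Ctrl, 452 to 37459 in AMB mKO, 10482 to 28205 in HU Ctrl and 10604 to 34672 in HU mKO, and 3 were called lower in the average. The 9 adipocyte genes summed to 675 to 1857 CPM in AMB Ctrl, 911 to 10668 in AMB mKO, 1050.4 to 1530 in HU Ctrl and 1027 to 4038 in HU mKO. Only Adrb3 among them was called, lower with unloading in knockouts and in the average (-2.69 ± 0.61). The remaining lists were read first in single genotypes, where 3 of 8 fast fibre genes were higher in each. Among 6 endothelial genes, 2 were lower in controls and 1 in knockouts, and 1 of 13 fibro-adipogenic progenitor genes was lower in knockouts. None of 7 macrophage or 8 Schwann cell genes was called. The average also called the fast fibre genes Myh4 and Atp2a1 higher, where 14.2% of all genes were. It called the endothelial gene Emcn lower as well, where 14.3% were. Of all genes, 5.74% were called lower and 5.37% higher with unloading in controls, and 4.75% and 5.3% in knockouts.

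Over 30 libraries, after group and sex were removed, 20 relations of Scx or Tnmd to these marker sums were tested by permutation with adjustment over the 20. Scx rose with the slow fibre sum (r = 0.85, rho = 0.66, adjusted permutation p 6.67e-05 and 0.000733), and r was 0.59 without the 2 farthest libraries. Scx ran against the adipocyte sum (r = -0.82, rho = -0.82, adjusted permutation p 6.67e-05 and 0.0001), and r was -0.73 without 2 libraries. Tnmd did so less closely (r = -0.66, rho = -0.55, and -0.46 without 2 libraries). Plin4 had the highest median in the adipocyte sum, at 1090 CPM, against 0.43 (Adrb3) to 83.6 (Cfd) for the others. In single libraries the others reached up to 3595 CPM (Cfd). Which genes of the sum carry these relations was not tested. Tnmd rose with the cartilage sum (r = 0.78, rho = 0.76, adjusted permutation p 6.67e-05 and 0.0001), and so did Scx (r = 0.66, rho = 0.50, and 0.41 without 2 libraries). With the junction sum r was 0.52 for Tnmd and 0.61 for Scx. The highest median in that sum was that of Itga7, at 160 CPM, against 11.2 (Ankrd1) to 42.1 (Col22a1) for the others. Scx ran against the Schwann cell sum (r = -0.58, rho = -0.58, adjusted permutation p 0.00186 and 0.0049), and Tnmd rose with the macrophage sum (r = 0.47, rho = 0.56, adjusted permutation p 0.0176 and 0.00636, and r = 0.70 without 2 libraries). Tnmd with the slow fibre and Schwann cell sums, and Scx with the fibro-adipogenic progenitor sum, passed for r but not for rho. Bone, endothelial and fast fibre sums did not pass for either gene. The part of these cell types in the fall of Scx with unloading was not tested. Without the 3 libraries highest in Adipoq, all of them knockouts, the change of Scx in knockouts was -1.81 ± 0.39.

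Reads of overlapping genes bear on 3 members, since the strand setting of the counting is not given in the sources used here. In GENCODE M21, Scx overlaps Bop1 and Chad overlaps Acsf2 on the opposite strand, and Mkx overlaps AC148004.2 on its own strand. Bop1 had means of 24.8 ± 3.91, 25.5 ± 5.85, 21.9 ± 4.80 and 23.4 ± 3.41 CPM in AMB Ctrl, AMB mKO, HU Ctrl and HU mKO (SD, n = 8, 7, 7 and 8). The part of these overlaps in the counts of the 3 genes was not tested.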

How the data were processed

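RNA of 30 mouse soleus muscles was sequenced on an Illumina NovaSeq from a directional total RNA library, per the labels' protocols. Other parts of those protocols speak of people and of myotubes and were not used. The deposited values are raw counts of reads for each Ensembl gene and mouse. Per the submitters' processing notes, the authors used STAR 2.7.9a, featureCounts 1.6.3, cutadapt 1.16 and DESeq2 1.34.0 with builds GRCm39 and mm39. For the annotation release and strand setting, these were not given in the sources used here.

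Ensembl identifiers were matched to symbols by table, which named 52073 of 56980 genes. Groups and sex came from the labels, and Xist and Ddx3y matched the labelled sex in 30 of 30 mice. There were 0 pairs of identical libraries. The labels do not say whether mice shared litters or processing days, so p-values measure the spread between these mice. At 12.1 to 20.9 M counts per library, the spread between mice rather than counting error set the precision of most values.

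Counts were normalised by TMM and tested in edgeR 4.0.16 under R 4.3.3 (filterByExpr, glmQLFit with robust dispersion, glmQLFTest) with a term for each group and for sex over all 30 libraries. Calls needed an adjusted p (Benjamini-Hochberg over 16932 genes) below 0.05. Values after ± are standard errors beside log2 changes and standard deviations beside means. Standard errors in edgeR were derived from the test, as the absolute log2 change divided by the square root of its F statistic. They are less stable for estimates near 0. Intervals are 95% t intervals. Correlations used log2 CPM (prior count 2) and 100000 permutations, and ratios of Scx a pseudocount of 0.5 counts. The scripts were tested on simulated data with known changes.

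The 8 genes, the lists and the tests were chosen with earlier results of these data known. Named genes are the 8, at most 6 per list and comparison with the smallest p, and the 8 most correlated genes with a mean of at least 1 CPM. Thbs3, Ibsp and the libraries singled out were chosen after their values were seen. Alternatives were DESeq2 1.42.0, limma 3.58.1 voom with library weights, median-of-ratios scaling in edgeR, no filter, a minimum mean of 1 CPM, no sex term, the title letter, the compared groups only, each library left out and, chosen after seeing the data, the 3 libraries highest in Adipoq left out.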

Additional observations from a re-analysis of the deposited data

Results flagged for a closer look

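In 5 of 32 sets of values, 1 gene in 1 group each, a single library lay far from the others of its group by Dixon's criterion, which chance meets in about 1 in 20 groups. AMB mKO replicate 4 had 57.7 CPM of Scx, against 22.5 in the next library. AMB mKO replicate 5 had 22.4 CPM of Mkx, against 9.48, then 224 CPM of Chad, against 92.1, and 1247 CPM of Fmod, against 531. HU Ctrl replicate 2 had 487 CPM of Chad, against 183. All 5 are high values, and 4 are in the ambulatory knockouts. The criterion was applied to CPM and not to log2 CPM, and on the CPM scale high values lie farther apart. The rate of 1 in 20 is for independent sets of normally distributed values. These sets share libraries and the genes varied together, so 5 of 32 cannot be set against that rate.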

How the results depend on the processing

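The fall of Scx in controls was called under all 39 alternatives, at log2 changes from -1.96 to -1.72 and adjusted p from 0.000122 to 0.0373. In knockouts the number of the 8 genes called went from 1 to 0 without the low-count filter (Scx -1.60, adjusted p 0.09) and in the fit of the compared groups only, and ran from 0 to 1 over fits with 1 library left out. In the average over genotypes it went from 2 to 1 without the filter (Cilp2 -1.71, adjusted p 0.113) and with the title letter, and ran from 1 to 2 with 1 library left out. The numbers called between genotypes and for the interaction stayed at 0.

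Signs changed only for estimates within their error. For unloading in controls these were Chad at -0.00038 with median-of-ratios factors, -0.0015 with DESeq2 and -1.34 with voom, Mkx at -0.39 and Comp at -0.79 with voom, and Fmod at 0.061 with the title letter. For unloading in knockouts with the compared groups only they were Mkx at 0.27, Comp at 0.15 and Fmod at 0.18. The Cilp2 interaction was 0.094 with voom. Without the 3 libraries highest in Adipoq, Scx (0.018), Tnmd (0.15) and Cilp2 (0.14) turned between genotypes in ambulatory mice, and the Scx interaction was -0.031. With 1 library left out, unloading in controls ran from -0.90 to 0.23 for Chad, -0.42 to 0.56 for Comp and -0.41 to 0.47 for Mkx. In knockouts it ran from -1.20 to 0.035 for Fmod and -0.61 to 0.29 for Mkx. Between genotypes in ambulatory mice it ran from -0.88 to 0.14 for Cilp2 and -0.85 to 0.12 for Tnmd, in unloaded mice from -0.26 to 0.024 for Scx, and the Scx interaction from -0.15 to 0.62. The cause was not tested. With voom the average for Tnmd was called (-1.32, adjusted p 0.026).

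No paired analysis was possible because the labels give no replicate numbers that match mice of different groups. The title letters, each with several mice per group, entered only as a covariate. With SEs of 0.65 to 0.97 for 7 of the 8 genes in the unloading comparisons within a genotype, changes near 2-fold were not detectable there. Averaged over genotypes the SEs of these 7 ran from 0.47 (Mkx) to 0.66 (Cilp2). In that average Tnmd, 1.97-fold lower, was not called by edgeR.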
